A study of Mus musculus with 2 samples.

Results

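The Fc receptor genes encode proteins that bind the constant part of antibodies, the chain through which such proteins signal, and related proteins of B cells. They were chosen by name as Fcgr1, Fcgr3, Fcgr4, Fcer1g, Fcgr2b, Fcgrt, Fcer1a, Fcer2a, Fcrla and Fcrl1, and all 10 were found among the 54532 genes measured. Their RNA was sequenced in macrophages sorted on F4/80 and CD11b from the aorta of male ApoE-/- mice, which lack apolipoprotein E, on a C57BL/6J background and labelled as 6 weeks old, an age that may be that at the start of the models. The comparison addressed how macrophages differ between mouse models of syndromes that traditional Chinese medicine distinguishes in dyslipidemia. In the Phlegm-Dampness Retention (PDR) group, mice had 4 weeks of high-fat diet. In the Spleen and Kidney Yang Deficiency (SKYD) group, mice had propylthiouracil, a drug that lowers thyroid hormone, by gavage at 10 mg/kg per day for 4 weeks and then 2 weeks of high-fat diet. The cells of 5 mice were pooled per group and sequenced as 1 library, so no difference given here has a replicate check. The syndrome cannot be told apart from the drug, the time on the diet and the age.

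Fc receptors join antibodies to the cells that respond to them. In mouse macrophages, an activating receptor for immunoglobulin G (IgG) is formed by an alpha chain that binds the antibody, encoded by Fcgr1, Fcgr3 or Fcgr4, and by the chain encoded by Fcer1g, whose activation motif (ITAM) is phosphorylated by Src family kinases and then binds Syk. Fcgr2b binds IgG as well, but carries an inhibitory motif (ITIM) that recruits a lipid phosphatase, and the balance between both kinds of receptor sets how strongly a macrophage takes up immune complexes, among them those with oxidized lipoprotein in the vessel wall.

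Levels are given as FPKM, the fragments per kilobase of gene scaled by a library size, and reads were recovered as whole numbers from FPKM and gene length. The PDR library held 23086889 reads on genes and the SKYD library 25427863, while the library sizes behind FPKM were 1.02 and 0.983 times these sums. The Fc receptor genes took 97940 reads in the PDR library, or 0.424% (95% CI 0.422 to 0.427), and 126054 in the SKYD library, or 0.496% (95% CI 0.493 to 0.498). Each gene had between 58 and 43829 reads per library, and all 10 had a mean FPKM of at least 1, the level above which genes were compared. Intervals are exact (Clopper-Pearson) 95% confidence intervals on how reads split, and they cover counting error only. They say nothing of how mice differ.

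Differences are given as log2(FPKM + 1) in PDR minus SKYD. By this measure 3 of the 10 Fc receptor genes, Fcer2a, Fcrla and Fcrl1, were more than 2-fold higher in PDR, against 7.38% of the 10399 genes compared. None was more than 2-fold higher in SKYD (0 of 10), against 6.91% of all genes, and in either direction the share of all genes was 14.3%. The other 7 Fc receptor genes lay between these thresholds. The median difference of the 10 genes was 0.21, with a range from -0.81 to 2.17, beside a median of -0.0035 and a range from -1.24 to 1.30 between the 5th and 95th percentile of all genes compared. In the bulk libraries, fewer cells that carry a receptor and less of its RNA per cell cannot be told apart.

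**Figure D1:**
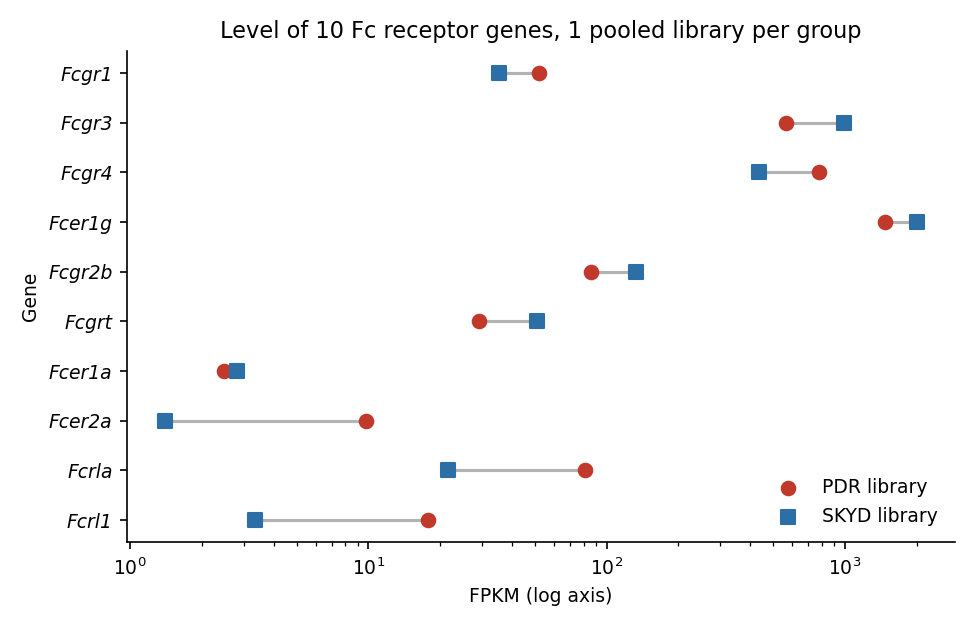
Level of each Fc receptor gene in FPKM, on a log axis, with circles for the PDR library and squares for the SKYD library. Fcer1g, Fcgr3 and Fcgr4 lie highest in both libraries, and Fcer2a, Fcrla and Fcrl1 show the widest gaps, with PDR above SKYD.

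The levels of the 10 genes spanned from 2.47 FPKM for Fcer1a to 1471 for Fcer1g in PDR, and from 1.40 for Fcer2a to 2006 for Fcer1g in SKYD. In PDR, Fcer1g was followed by Fcgr4, Fcgr3, Fcgr2b, Fcrla, Fcgr1, Fcgrt, Fcrl1, Fcer2a and Fcer1a. In SKYD the order was Fcer1g, Fcgr3, Fcgr4, Fcgr2b, Fcgrt, Fcgr1, Fcrla, Fcrl1, Fcer1a and Fcer2a. Thus Fcgr3 and Fcgr4 exchanged places between the libraries, and Fcrla and Fcer2a stood lower in the order of SKYD, while Fcrl1 kept place 8. With the gene lengths in the file, the neighbours Fcrl1 and Fcer1a in SKYD did not differ beyond counting error, with a ratio of 1.19 (95% CI 0.917 to 1.57), and the ratio of Fcgr2b to Fcrla in PDR was 1.06 (95% CI 1.02 to 1.10). Levels of neighbours depend on these lengths, which count all exons of a gene. Per base of the principal transcripts, a choice made after seeing the data, both orders were the same, but Fcrl1 had 6.02 FPKM and Fcer1a 2.81 in SKYD, and Fcgr2b had 140.0 and Fcrla 84.4 in PDR.

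The sorted cells were checked against markers of macrophages. The F4/80 gene Adgre1 (ENSMUSG00000004730) had 87.3 FPKM in PDR and 93.3 in SKYD, a difference of -0.095. The CD11b gene Itgam, whose protein is also a subunit of a complement receptor, had 8.84 and 14.4 FPKM. All 12 macrophage markers passed the level for comparison. None was past 2-fold in PDR (0 of 12), while 3, Cd14 and Cd163 among them, were more than 2-fold higher in SKYD. Their median difference was -0.62, with a range from -2.65 for Cd14 to 0.84 for Marco, and Csf1r at 0.35 was also higher in PDR. Together they had 733045 reads in PDR and 1455369 in SKYD, mostly on the lysozyme gene Lyz2. Fc receptor differences were therefore also taken relative to this median, which moved the median of all genes from -0.0035 to 0.61. On that scale 5 of the 10 Fc receptor genes, those above with Fcgr1 and Fcgr4, were more than 2-fold higher in PDR, against 23.1% of all genes, and 0 were more than 2-fold higher in SKYD, against 3.25%.

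**Figure D2:**
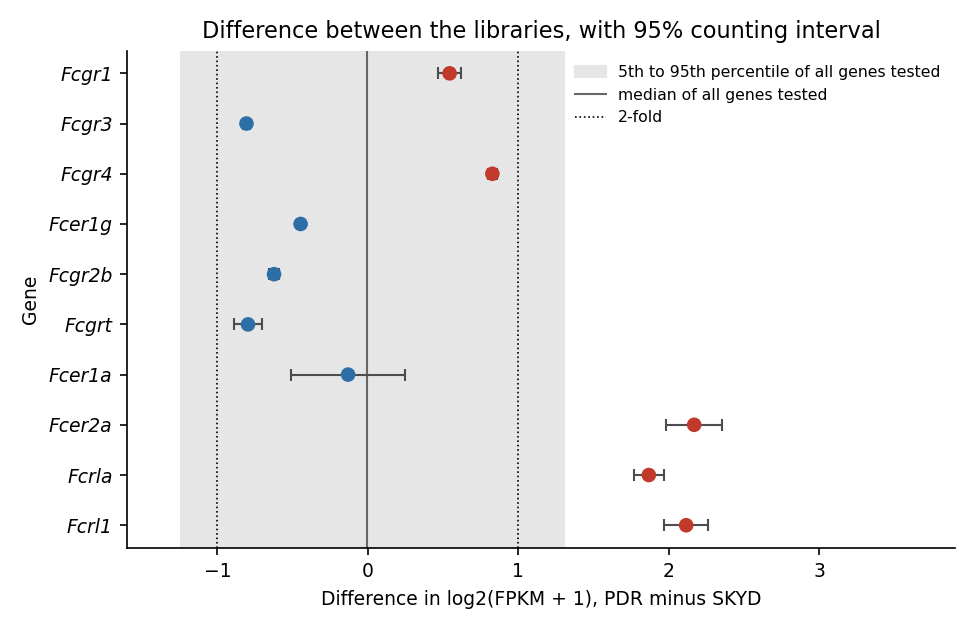
Difference of each Fc receptor gene in log2(FPKM + 1), PDR minus SKYD, with red points higher in PDR, blue points higher in SKYD and bars for the 95% counting interval; the grey band runs from the 5th to the 95th percentile of all genes compared and dotted lines mark 2-fold. Fcer2a, Fcrla and Fcrl1 lie to the right of the band, and relative to the macrophage marker median Fcer1g and Fcer1a change sign, to 0.17 and 0.49.

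Among the activating receptors for IgG, Fcgr4 and Fcgr1 were higher in PDR and Fcgr3 was higher in SKYD. Fcgr4 (ENSMUSG00000059089, chr1:171018920-171029761, plus strand), a receptor for IgG2c and IgG2b, had 775 FPKM in PDR and 436 in SKYD. It ranked 94 among all genes in PDR and 188 in SKYD, and was 1.78-fold higher in PDR (95% CI 1.74 to 1.81), with a log2 difference of 0.83. Fcgr4 was the most abundant alpha chain in PDR but not in SKYD.

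Fcgr3 (ENSMUSG00000059498, chr1:171051174-171064935, minus strand), a low-affinity receptor for IgG immune complexes, went the other way. It had 565 FPKM in PDR and 990.0 in SKYD, from 23052 and 42953 reads. It was 1.75-fold higher in SKYD (95% CI 1.72 to 1.78), with a log2 difference of -0.81 (95% CI -0.83 to -0.78), which narrowed to -0.19 relative to the macrophage marker median.

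Fcgr1 (ENSMUSG00000015947, chr3:96282909-96293969, minus strand) encodes the high-affinity receptor, which binds IgG2c also as a monomer. Its level was much lower than those of the other alpha chains, with 51.9 FPKM in PDR and 35.3 in SKYD. The difference was 0.54 (95% CI 0.47 to 0.62), or 1.47-fold higher in PDR, and relative to the macrophage marker median it was 1.16. Positions are those of GRCm38.

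Because Fcgr4 and Fcgr3 moved in opposite directions, the make-up of the activating receptors differed between the libraries more than their sum. The FPKM of Fcgr1, Fcgr3 and Fcgr4 summed to 1392 in PDR and 1462 in SKYD. Fcgr4 made up 55.7% of this sum in PDR and 29.9% in SKYD. Fcgr3 made up 40.6% and 67.7%, and Fcgr1 3.73% and 2.41%. Within a library, where depth has no part, the FPKM of Fcgr4 was 1.37 times that of Fcgr3 in PDR (95% CI 1.35 to 1.40) and 0.441 times in SKYD (95% CI 0.432 to 0.449). The levels and shares depend on gene length: per base of the principal transcripts, Fcgr4 had 775 FPKM and Fcgr3 729 in PDR, and 436 and 1276 in SKYD. The fold of a single gene, or of the ratio of a pair of genes, between the libraries does not depend on it, whereas that of a sum does. The ratio of Fcgr4 to Fcgr3 was 3.11-fold higher in PDR (95% CI 3.03 to 3.19). Fcgr1 over Fcgr3 was 2.57-fold higher in PDR (95% CI 2.43 to 2.72).

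Levels were also set against Adgre1, as a gene of the sorted cells. The ratio of Fcgr4 to Adgre1 in FPKM was 8.88 in PDR and 4.68 in SKYD, and that of Fcgr1 was 0.594 and 0.378. For Fcgr3 the ratio to Adgre1 was 6.48 in PDR and 10.6 in SKYD. Adgre1 itself differed by only 1.07-fold, so these ratios follow the levels per library and are no separate check of direction. Itgam, the gene of the other sort marker, was 1.62-fold higher in SKYD and was not used for such ratios.

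The promoters of Fcgr1, Fcgr3 and Fcgr4 are shown because these genes moved in different directions although their proteins share a signalling chain. That of the inhibitory Fcgr2b is given beside them. RefSeq start sites of GRCm38.p6 were found for all 10 Fc receptor genes, with 13 promoters of 300 bases, from 250 bases before to 50 after the start. They were searched on both strands for letters known from myeloid and interferon-responsive genes, namely TTCNNNGAA of the gamma-activated site (GAS), GAAANNGAA of the interferon-stimulated response element (ISRE) and GAGGAA of the core bound by PU.1, a factor of myeloid and B cells. The 120 bases before the start are given 5′ to 3′ on the strand of each gene, with matches in capitals, for Fcgr1 at chr3:96293970-96294089 (minus strand), Fcgr3 at chr1:171059404-171059523 (minus strand), Fcgr4 at chr1:171018806-171018925 (plus strand) and Fcgr2b at chr1:170976072-170976191 (minus strand).
Fcgr1: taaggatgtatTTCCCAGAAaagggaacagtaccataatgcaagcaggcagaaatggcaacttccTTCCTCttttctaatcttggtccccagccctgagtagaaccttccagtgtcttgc
Fcgr3: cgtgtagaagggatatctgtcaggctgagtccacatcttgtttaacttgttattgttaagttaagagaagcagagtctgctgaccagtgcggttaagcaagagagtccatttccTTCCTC
Fcgr4: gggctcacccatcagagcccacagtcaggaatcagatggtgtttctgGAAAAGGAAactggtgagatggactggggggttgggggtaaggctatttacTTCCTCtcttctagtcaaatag
Fcgr2b: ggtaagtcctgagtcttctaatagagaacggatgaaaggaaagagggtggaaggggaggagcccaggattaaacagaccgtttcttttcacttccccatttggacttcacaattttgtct
The GAS letters read the same on both strands and matched in 1 of the 13 promoters, that of Fcgr1, beginning 109 bases before the start, against 8.33% of 32544 promoters of all genes. The ISRE letters matched in 2, those of Fcgr4 at 73 bases and Fcrla at 192 bases before the start, against 8.53% of all promoters. The PU.1 core, which here did not overlap the others, matched in 7 promoters of 6 genes, against 28.1% of all promoters. The promoters of Fcgr3 overlap, and the same site is counted in both, at 6 and 15 bases before their starts. In Fcgr1, Fcgr3 and Fcgr4 the core stands on the opposite strand, read as TTCCTC, beginning 55, 6 and 22 bases before the start. It also matched in Fcer1a, Fcrla and Fcrl1. None of the 3 motifs matched in the promoters of Fcer1g, Fcgr2b, Fcgrt and Fcer2a. A match shows only that the letters are there, and binding was not measured.

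Fcer1g (ENSMUSG00000058715, chr1:171229572-171234365, minus strand), the signalling chain that Fcgr1, Fcgr3 and Fcgr4 need at the cell surface and that is shared with the IgE receptor of mast cells, was the most abundant of the 10 genes. It had 1471 FPKM in PDR and 2006 in SKYD, and ranked 53 and 34 among all genes of these libraries. Its difference was -0.45 (95% CI -0.47 to -0.43), or 1.36-fold higher in SKYD, but it changed sign to 0.17 relative to the macrophage marker median. Fcer1g alone took 30.8% of the reads on the 10 genes in PDR and 34.8% in SKYD. Set against the summed FPKM of the alpha chains, with the gene lengths in the file, Fcer1g was 1.06 times their level in PDR and 1.37 times in SKYD. It was 1.90 times the level of Fcgr4 in PDR and 4.60 times in SKYD, whereas its ratio to Fcgr3 was 2.60 and 2.03. Fcer1g per Adgre1 was 16.9 in PDR and 21.5 in SKYD.

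The inhibitory receptor Fcgr2b (ENSMUSG00000026656, chr1:170958617-170976547, minus strand), which is carried by macrophages and by B cells, had 85.7 FPKM in PDR and 133 in SKYD. It was 1.55-fold higher in SKYD (95% CI 1.51 to 1.58), with a log2 difference of -0.62 that became -0.0058 relative to the macrophage marker median. Its ratio to Adgre1 was 0.982 in PDR and 1.42 in SKYD. Fcgr2b and Fcgr3 were thus both lower in PDR than in SKYD. The extracellular parts of these genes are alike in sequence, and 44 of 1733 windows of 100 bases in Fcgr3 transcripts (2.54%) also occur in Fcgr2b. Of the windows of Fcgr2b, 4.30% occur in other genes, Fcgr3 among them, while 0 windows of the other 8 Fc receptor genes were shared. Reads from shared windows cannot be assigned to 1 gene by those bases alone. Whether they were counted or dropped is not given in the sources used here.

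The activating to inhibitory ratio, taken as the summed FPKM of Fcgr1, Fcgr3 and Fcgr4 over that of Fcgr2b, was 16.2 in PDR and 11.0 in SKYD, a log2 difference of 0.56. Fcgr4 decided its direction. Without Fcgr4 the ratio was 7.20 in PDR and 7.73 in SKYD, a log2 difference of -0.10, and without Fcgr3 it was 9.65 and 3.56, a log2 difference of 1.44. Counted by reads, the ratio was 4.21 in PDR (95% CI 4.13 to 4.30) and 3.07 in SKYD (95% CI 3.02 to 3.12). Receptor by receptor, Fcgr4 over Fcgr2b was 9.04 in PDR and 3.29 in SKYD, 2.75-fold higher in PDR (95% CI 2.66 to 2.84). Fcgr1 over Fcgr2b was 0.605 and 0.266, or 2.27-fold higher in PDR (95% CI 2.14 to 2.41). Fcgr3 over Fcgr2b was 6.60 and 7.47, 1.13-fold higher in SKYD (95% CI 1.10 to 1.16). The level of Fcgr2b depends on the length it is divided by, since the file counts 5790 bases of exon and the principal transcript has 3544. Per base of the principal transcripts, the ratio was 11.1 in PDR and 8.07 in SKYD.

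**Figure D3:**
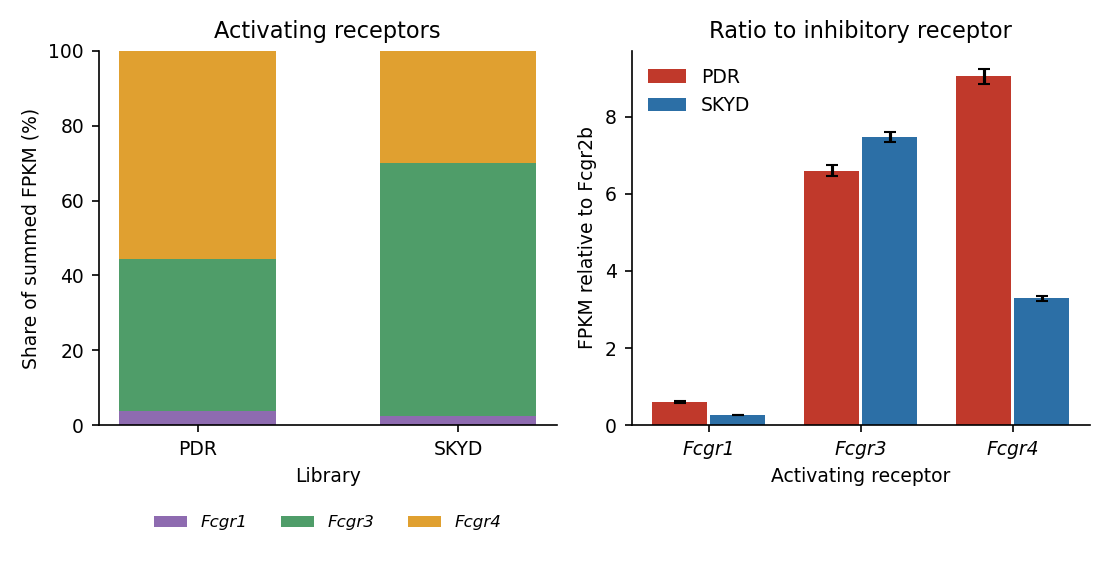
Left, share of Fcgr1, Fcgr3 and Fcgr4 in their summed FPKM in each library; right, FPKM of each activating receptor relative to Fcgr2b in the same library, with 95% counting intervals. Fcgr4 takes 55.7% of the sum in PDR and 29.9% in SKYD, and its ratio to Fcgr2b is 9.04 and 3.29.

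Fcgrt (ENSMUSG00000003420, chr7:45092990-45103851, minus strand) encodes the neonatal Fc receptor, which pairs with beta-2-microglobulin and returns IgG and albumin from endosomes to the cell surface. It had 29.0 FPKM in PDR and 51.1 in SKYD. Fcgrt was 1.76-fold higher in SKYD (95% CI 1.65 to 1.88), with a log2 difference of -0.80, which narrowed to -0.18 relative to the macrophage marker median. Its partner B2m went the other way, with 11417 FPKM in PDR and 8358 in SKYD. The ratio of Fcgrt to B2m was 0.00254 in PDR and 0.00611 in SKYD, 2.41-fold higher in SKYD (95% CI 2.26 to 2.57). Per Adgre1, Fcgrt was 0.332 in PDR and 0.548 in SKYD.

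Of the receptors for IgE, Fcer1a was scarce and did not differ detectably, and Fcer2a was higher in PDR. Fcer1a (ENSMUSG00000005339, chr1:173221284-173227214, minus strand), the alpha chain of the high-affinity receptor of mast cells and basophils, had 58 reads in PDR and 70 in SKYD, or 2.47 and 2.81 FPKM. The difference of -0.13 had an interval from -0.51 to 0.25, and on the scale of the macrophage marker median it was 0.49. Ms4a2, which encodes the beta chain of the same receptor, had 41 and 18 reads. Fcer1a was 3.99 times Ms4a2 per length in PDR (95% CI 2.63 to 6.10) and 11.0 times in SKYD (95% CI 6.46 to 19.6). Markers of mast cells and basophils had 1460 reads in PDR and 1736 in SKYD over 10 genes. Mcpt4 and Tpsb2 were at 0 in both libraries, and the most abundant by mean FPKM, the basophil protease gene Prss34, had 13.2 FPKM in PDR and 10.4 in SKYD. Of the 5 mast cell and basophil markers compared, Mcpt8 and Cma1 were past 2-fold in PDR and Cpa3 in SKYD. Their median of 0.31 became -0.019 with no filter on FPKM and -0.42 at a mean FPKM of at least 5.

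Fcer2a (ENSMUSG00000005540, chr8:3681737-3694175, minus strand) encodes CD23, the low-affinity IgE receptor of mature B cells. It had 9.78 FPKM in PDR and 1.40 in SKYD, from 710 and 108 reads. It was 7.00-fold higher in PDR (95% CI 5.71 to 8.65), and its log2 difference of 2.17 was the largest of the 10 genes. Fcrl1 (ENSMUSG00000059994, chr3:87376387-87402934, plus strand), an Fc receptor-like protein on the surface of B cells, had 17.8 FPKM in PDR and 3.35 in SKYD. It was 5.33-fold higher in PDR (95% CI 4.70 to 6.05), a log2 difference of 2.12. Fcrla (ENSMUSG00000038421, chr1:170917576-170927583, minus strand), a relative that stays inside B cells, had 81.2 and 21.5 FPKM. It was 3.77-fold higher in PDR (95% CI 3.51 to 4.06), a log2 difference of 1.87. The folds come from reads per library size, whereas the 1 added to FPKM shrinks log2 differences at low levels. With 0.1 added in its place, the differences were 2.72 for Fcer2a, 2.38 for Fcrl1 and 1.91 for Fcrla. These 3 genes, known from B cells, were the ones past 2-fold, while Fcgr2b, carried by B cells as well as macrophages, was higher in SKYD. Each of the 3 lay above the 95th percentile of all genes compared.

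Markers of B cells moved with Fcer2a, Fcrl1 and Fcrla. Of 8 B cell markers compared, 6 were past 2-fold in PDR and 0 in SKYD, with a median of 2.04 (1.80 with no filter on FPKM), and the list of 10 summed to 92896 reads in PDR and 23176 in SKYD. Its most abundant gene, the antigen receptor chain gene Cd79b, had 802 FPKM in PDR and 168 in SKYD. The part of B cells in the differences of Fcer2a, Fcrl1 and Fcrla was not tested. Set against Cd79b, a gene chosen for this after the data were seen, the level of Fcer2a was 0.0122 in PDR (95% CI 0.0113 to 0.0131) and 0.00831 in SKYD (95% CI 0.00681 to 0.0101), 1.47-fold higher in PDR (95% CI 1.19 to 1.82). Fcrl1 per Cd79b was 0.0222 in PDR and 0.0199 in SKYD, and a difference was not detectable at this depth, with a fold of 1.12 for PDR over SKYD (95% CI 0.982 to 1.27). Fcrla per Cd79b was 0.101 and 0.128, or 1.27-fold higher in SKYD (95% CI 1.17 to 1.37). Cd79b itself was 4.77-fold higher in PDR, so by construction each fold per Cd79b was the fold per library divided by 4.77. These ratios are therefore no separate check of the part of B cells. The compared B cell markers themselves differed by 0.36 to 3.07, so such a ratio depends on the marker it is set against. The ratio of Fcgr2b, which was higher in SKYD, to Cd79b was 0.107 in PDR and 0.789 in SKYD.

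In position, 6 of the 10 genes lie on chromosome 1, and 5 of them, Fcrla, Fcgr2b, Fcgr4, Fcgr3 and Fcer1g, lie within 317 kb. Within this stretch the directions were mixed, with Fcrla and Fcgr4 higher in PDR and Fcgr2b, Fcgr3 and Fcer1g higher in SKYD, although Fcer1g changed sign relative to the macrophage marker median. Beside Fcer1g lies Apoa2, an apolipoprotein gene of the liver, at a difference of 1.43. Fcrl1 on chromosome 3 lies between Cd5l, at -0.53, and the Fc receptor-like gene Fcrl5, at 1.71. Fcrla lies beside another Fc receptor-like gene, Fcrlb, which went the other way from Fcrla, at -1.20 and a mean of 0.81 FPKM. Exons of Fcgr2b overlap those of 1 gene, Gm38204 on the opposite strand, by 155 bases. Gm38204 had 1 and 0 reads, and its part in the reads of Fcgr2b was not tested.

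The ligands of the Fc receptors, read from the constant genes of immunoglobulin heavy chains, were mostly higher in PDR. Of 7 constant genes compared, 5 were past 2-fold in PDR and 0 in SKYD, with a median of 2.87. Ighg2b had 6154 FPKM in PDR and 542 in SKYD, and Ighg2c had 2390 and 97.1. Ighg1 had 69.1 and 3.13 FPKM, while Ighm had 3689 and 2917. Ighe, the ligand gene of Fcer1a and Fcer2a, had 6 and 4 reads. These are transcripts of cells that make antibody, and the amount of antibody on the macrophages was not measured. Markers of plasma cells had 181593 reads in PDR and 171969 in SKYD, with 3 of 7 compared more than 2-fold higher in PDR, 0 in SKYD and a median of 0.95 (1.36 at a mean FPKM of at least 5), and the most abundant, the joining chain gene Jchain, had 2483 and 2403 FPKM.

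A list of other antibody receptors and Fc receptor-like genes, with the partner gene B2m and the gene of the cytosolic antibody receptor Trim21, had 5 genes compared. Of these, 2 were past 2-fold in PDR and 0 in SKYD, and the median of 0.99, the value of Trim21 itself, was 0.41 with no filter on FPKM. Fcrlb, below the level for comparison, had 3 reads in PDR and 49 in SKYD, or 15.3-fold more per library size in SKYD (95% CI 4.95 to 77.0). Fcmr, the receptor for IgM on B cells, had 91.4 FPKM in PDR and 18.6 in SKYD, a difference of 2.23. By reads it was 4.90-fold higher in PDR (95% CI 4.54 to 5.29), less than the 7.00-fold of Fcer2a. Fcrls, a relative of Fcrl1 and Fcrla that is expressed in macrophages, had 34.9 and 70.4 FPKM, a difference of -0.99.

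Genes through which the activating receptors signal went both ways. Of 22 compared, Blnk was more than 2-fold higher in PDR and Lat and Card9 were more than 2-fold higher in SKYD, with a median of 0.21 and a range from -2.45 to 2.07. Blnk, at 2.07, stood near the B cell marker median of 2.04. Lat, at -2.45, stood near the T and NK cell marker median of -2.30. The part of B and T cells in these differences was not tested. The Src family kinase genes Lyn and Fgr, which act on the ITAM of Fcer1g, had differences of 0.25 and 0.16. Of 8 genes of inhibitory signalling, the route of Fcgr2b, 0 were past 2-fold either way. Their median was 0.19, but -0.057 with no filter on FPKM and 0.63 at a mean FPKM of at least 5. The phosphatase gene Ptpn6 had 185 FPKM in PDR and 114 in SKYD, a difference of 0.70, and Ptpn11, another phosphatase gene, was at -0.64. Inpp5d, the gene of the lipid phosphatase that Fcgr2b recruits, was at -0.06 (95% CI -0.17 to 0.06), and Fcgr2b at -0.62. Among 18 genes of phagocytosis and the oxidase, which act after Fc receptors take up a particle, Cybb, the catalytic subunit of the oxidase, was more than 2-fold higher in PDR at 120 and 54.3 FPKM, and 0 were more than 2-fold higher in SKYD. Their median was 0.19, and the most abundant, the oxidase subunit gene Cyba, had 1461 FPKM in PDR and 1864 in SKYD.

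**Figure D4:**
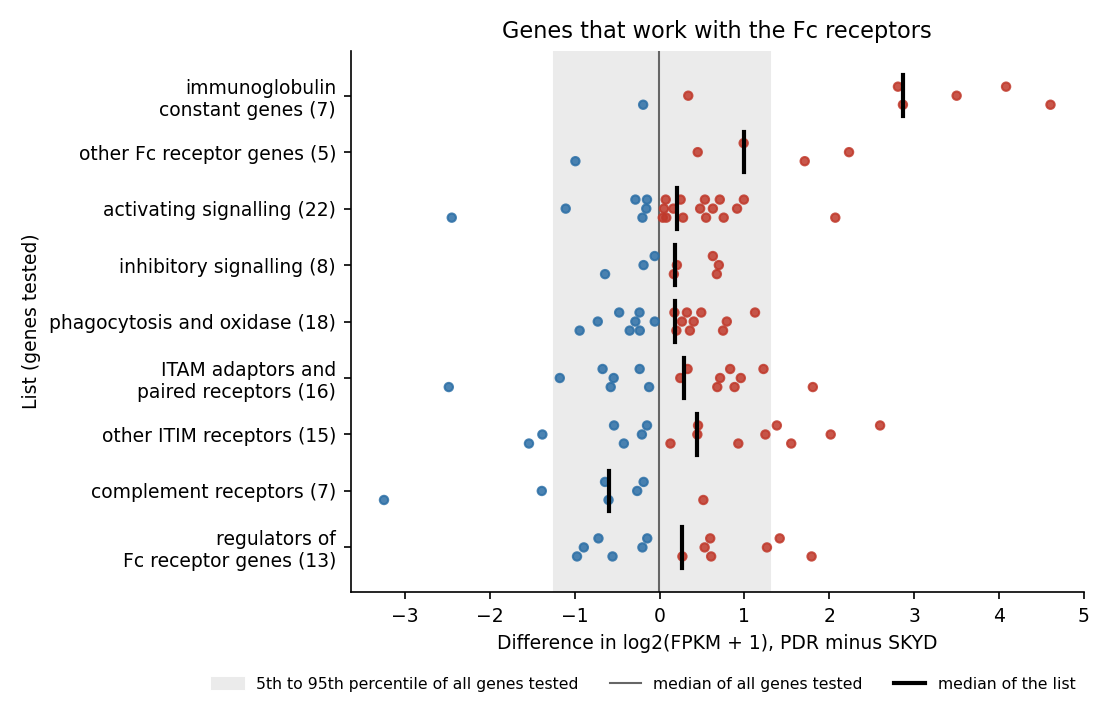
Difference in log2(FPKM + 1), PDR minus SKYD, of each compared gene in 9 lists of genes that work with the Fc receptors, in red where higher in PDR and blue where higher in SKYD; black bars are list medians and the grey band is the 5th to 95th percentile of all genes compared. The constant genes of immunoglobulin lie farthest to the right, with a median of 2.87, and the complement receptors have a median of -0.60.

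Receptors built like the Fc receptors were compared beside them. Tyrobp, an ITAM adaptor similar in role to Fcer1g, had 2908 FPKM in PDR and 4333 in SKYD, a difference of -0.58 beside -0.45 for Fcer1g. The macrophage marker median was -0.62, but these markers ranged from -2.65 to 0.84, and the part of macrophages in both differences was not tested. Of 16 ITAM adaptors and receptors that pair with them, Ncr1 and Clec7a were more than 2-fold higher in PDR, Clec4d and Trem1 were more than 2-fold higher in SKYD, and the median was 0.29. Clec4d, a lectin that signals through Fcer1g, had 43.2 and 246 FPKM, a difference of -2.48, far from that of Fcer1g. Of 15 other ITIM receptors, 5 were more than 2-fold higher in PDR, led by the B cell genes Cd22 at 2.60 and Cd72 at 2.02, and 2 in SKYD, with a median of 0.45 that became -0.0094 at a mean FPKM of at least 5. Complement receptors, a list that also holds the receptors of the soluble fragments C3a and C5a, had a median of -0.60 over 7 genes, and of -0.26 with no filter on FPKM. None of the 7 was more than 2-fold higher in PDR (0 of 7), and Vsig4 and C5ar1 were more than 2-fold higher in SKYD, C5ar1 with 30.7 and 81.9 FPKM. Cr2, a complement receptor of B cells, was not compared at a mean of 0.96 FPKM, and had 342 reads in PDR and 26 in SKYD, or 14.0-fold more per library size in PDR (95% CI 9.39 to 21.7).

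Regulators known for Fc receptor genes included 3 of 13 that were past 2-fold in PDR and 0 in SKYD, with a median of 0.27, or 0.53 at a mean FPKM of at least 5. Among these 3 were Irf1 and Irf8, which act in the response to interferon-gamma, a known inducer of Fcgr1, with differences of 1.79 and 1.27 beside 0.54 for Fcgr1 and 0.83 for Fcgr4. Ifngr1, which encodes a chain of the interferon-gamma receptor, went the other way, with 114 FPKM in PDR and 168 in SKYD, a difference of -0.55. Ifngr2, the gene of the other chain, was higher in PDR, with 37.2 FPKM in PDR and 24.3 in SKYD, a difference of 0.60. The most abundant regulators were higher in SKYD, as Fcgr3 and Fcgr2b were. Cebpb had 194 FPKM in PDR and 360.1 in SKYD, and Spi1, the gene of PU.1, had 108 and 179. Their differences of -0.89 and -0.72 stood near those of Fcgr3 and Fcgrt, and no link between a regulator and a receptor was tested.

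Other leukocytes that carry IgG receptors were also read from their markers. Neutrophil markers, of cells that carry Fcgr3 and Fcgr4 as well, had 78426 reads in PDR and 64399 in SKYD, with 2 of 10 more than 2-fold higher in PDR, 0 in SKYD and a median of 0.62, and the most abundant, S100a9, had 2209 and 1677 FPKM. Markers of classical monocytes had 270395 and 161133 reads and a median of 0.45 over 5 genes, of which Ly6c2 alone was more than 2-fold higher in PDR, and Chil3 was the most abundant. Non-classical monocytes, known for a high level of Fcgr4, had a median of 0.33 over 5 markers (0.54 at a mean FPKM of at least 5), none past 2-fold, with 4589 and 3471 reads, most FPKM on Treml4. The part of these cells in the differences of Fcgr4 and Fcgr3 was not tested.

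Dendritic cell markers had 4884 reads in PDR and 9949 in SKYD and a median of -0.64 over 5 genes, with 0 more than 2-fold higher in PDR and Cd209a and Siglech in SKYD, and Cd209a was the most abundant. They ranged from -3.06 for Siglech to 0.89 for Ccr7, and the median depended on the settings, at -1.06 with a pseudocount of 0.1, -0.23 with no filter on FPKM and -1.95 at a mean FPKM of at least 5. The list of 4 Kupffer cell markers, chosen for liver macrophages, had 6670 and 9743 reads, most FPKM on Cd5l. Its median was -0.53 over 3 genes (-0.28 with no filter on FPKM, -0.26 at a mean FPKM of at least 5), with Folr2 more than 2-fold higher in SKYD and 0 in PDR. Clec4f was below the level for comparison, with 37 reads in PDR and 41 in SKYD. Whether the list marks liver macrophages in these libraries was not tested. Markers of T and NK cells had 9732 and 41546 reads, most FPKM on Cd3d, with 5 of 8 more than 2-fold higher in SKYD, 1 in PDR and a median of -2.30. The 5 were T cell genes, while of the NK cell genes, whose cells carry Fcgr3, Nkg7 was 1.48, Klrb1c 0.38 and Klrd1 -0.71. The part of dendritic, Kupffer, T and NK cells in the differences of Fcgr3, Fcgr2b and Fcgrt was not tested.

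All 10 hepatocyte markers were more than 2-fold higher in PDR, with a median of 1.82, 60423 reads in PDR and 19647 in SKYD, and most FPKM on Apoa2. Endothelial and liver sinusoid markers, of cells known to carry Fcgr2b and Fcgrt, had 159 and 242 reads over 8 genes, most FPKM on Clec4g, and none reached a mean FPKM of 1. Hepatocytes are also known to express Fcgrt. The part of hepatocytes and endothelial cells in the differences of Fcgr2b and Fcgrt was not tested.

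**Figure D5:**
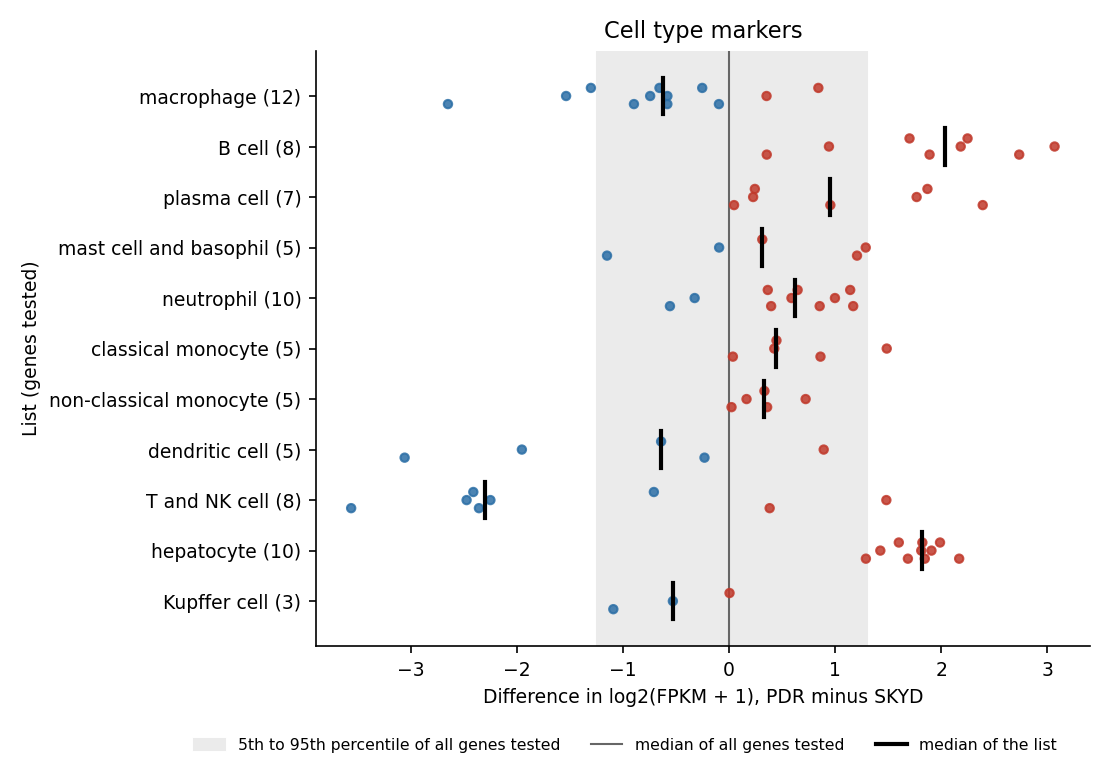
Difference in log2(FPKM + 1), PDR minus SKYD, of each compared marker gene in 11 lists of cell types, in red where higher in PDR and blue where higher in SKYD; black bars are list medians and the grey band is the 5th to 95th percentile of all genes compared. B cell markers have a median of 2.04, near the differences of Fcer2a, Fcrl1 and Fcrla, and macrophage markers one of -0.62.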

How the data were processed

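RNA of sorted macrophages was sequenced in 1 pooled library per group. Per the submitters' processing notes, reads were aligned with Bowtie2 2.0.6 and TopHat2 2.0.9 and counted per gene with HTSeq 0.6.1, and the authors deposited FPKM for 54532 genes. The notes name build mm9, but 98.3% of the 54409 genes shared with GENCODE M21 of GRCm38 have its start and end. Whether counting used strand is not given in the sources used here.

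FPKM times gene length fell on multiples of 1 step per library, taken as 1 read, and gave whole reads for 100% of genes above 0 (tolerance 0.01 reads, or 0.01% of a gene's reads). A count of 0 allows 3 reads, which is 1.3e-05% of reads on genes in PDR and 1.18e-05% in SKYD. Differences used log2(FPKM + 1) where the mean FPKM reached 1. Intervals of ratios between libraries are exact conditional ones. No p-value was computed.

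The members, the 9 partner lists and the 12 marker lists were chosen with earlier results of these data known. Named were all members, per list the 3 most abundant genes by mean FPKM and up to 3 with the largest difference, the sort marker genes, and neighbouring or overlapping genes. Ighe, Ms4a2, Mcpt4, Tpsb2, Trem1, Trim21, Inpp5d, Ifngr2, Klrb1c, Klrd1, Cr2, Csf1r, Marco, Clec4f and Fcrlb were named after their values were seen. Alternatives were other pseudocounts, filters, thresholds and scalings. The steps were tested on simulated data, in Python 3.11.15 with scipy 1.17.1, pandas 2.3.3, matplotlib 3.10.9 and numpy 2.4.6. Protein sequences were not used here, and some genes that the naming rule selects are not reported here.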

Additional observations from a re-analysis of the deposited data

How the results depend on the processing

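The 3 members more than 2-fold higher in PDR became 5 relative to the macrophage marker median, and the 0 higher in SKYD became 3 at a 1.5-fold threshold, where 15.0% of all genes were past it. Counts under the other alternatives stayed within 1.5 times. The activating to inhibitory ratio, at 0.56, was 1.44 without Fcgr3 and -0.10 without Fcgr4, by construction. Relative to the macrophage marker median, Fcer1g was 0.17 and Fcer1a 0.49, since 0.62 is added to each difference. Under these alternatives, 35 differences of members stayed within their counting interval, 13 moved beyond it in the same direction and 2 changed sign. Of the list medians, 64 moved by at most 0.2, 12 by more and 4 changed sign. Inhibitory signalling turned to -0.057 with no filter on FPKM, mast cell and basophil markers to -0.019 with no filter and -0.42 at a mean FPKM of at least 5, and other ITIM receptors to -0.0094 at that filter, as fewer or more genes were compared.

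No paired analysis was possible because each group has 1 library, and leaving out a library was not an option. Depth limits Fcer1a most, with 58 and 70 reads, and its difference was not detectable. Pooling hides the spread between mice, and the intervals do not cover it.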
